A study of Mus musculus with 6 samples.

Results

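The genes described here are linked to neuronal activity in olfactory sensory neurons: S100a5, Kirrel2 and Kirrel3, together with the immediate early genes Fos, Fosb, Egr1, Junb and Ier2. They were chosen by name, with the genotype comparison of these arrays already known, so every difference of these genes between the genotypes is given as a description, and no p-value of theirs is reported or used. Of the 8 genes, 6 were measured by a transcript cluster that the platform annotation assigns to a single gene, out of 14939 such clusters among 16661 tested. Each of the 6 had 1 cluster, and Kirrel2 and Fosb were not analysed here.

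RNA came from olfactory epithelium dissected from mouse embryos at ED18.5, where the vaginal plug morning counts as ED0.5. Embryos labelled Emx2 Knockout were set against embryos labelled Emx2 Homozygous Wildtype. No other allele or agent is named in the labels, and they do not describe the deletion. Each genotype had 3 arrays, and every array held equal amounts of RNA from 3 animals, so that 9 animals of each genotype contributed and differences between the animals of a pool cannot be seen. All values are log2 signals of whole transcripts, and an increase of 1 on this scale is a doubling of signal.

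Olfactory sensory neurons turn odorant binding into cyclic AMP, open a cyclic-nucleotide-gated channel and fire. In mature neurons this activity sets the amount of a group of genes. S100a5 encodes an EF-hand calcium-binding protein found in mature olfactory neurons, and its transcript is known to follow their activity closely. Kirrel2 and Kirrel3 encode homophilic adhesion molecules of the immunoglobulin superfamily that help axons of like neurons gather in shared glomeruli of the olfactory bulb, Kirrel2 being more abundant in active neurons and Kirrel3 in inactive ones. Fos, Fosb and Junb encode subunits of the AP-1 transcription factor, Egr1 encodes a zinc-finger transcription factor, and Ier2 a nuclear protein. These immediate early genes are switched on within minutes by activity, and in most tissues also by growth factors or handling stress.

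Promoter windows are shown for S100a5, the gene with by far the lowest values in the arrays labelled knockout relative to wildtype, and for Fos and Junb, whose values overlapped between the genotypes. They come from RefSeq on GRCm38.p6 and run 5′ to 3′ along the gene's strand, from 250 bases before to 50 bases after the start used by that table. Of the 8 genes, 5 had an entry, and those without one were Kirrel3, Egr1 and Ier2. The S100a5 window is chr3:90608272-90608571 on the + strand, the Fos window is chr12:85473640-85473939 on the + strand, and the Junb window is chr8:84978699-84978998 on the - strand. Capitals mark every match, on either strand, to 7 motifs. These were the cyclic AMP response element core TGACG, the AP-1 site TGANTCA, the Ebf (Olf-1) core CCCNNGGG, the homeodomain core TAATTA, the TATA box TATAAA, the Egr site GCGNGGGCG and the serum response (CArG) box.
S100a5: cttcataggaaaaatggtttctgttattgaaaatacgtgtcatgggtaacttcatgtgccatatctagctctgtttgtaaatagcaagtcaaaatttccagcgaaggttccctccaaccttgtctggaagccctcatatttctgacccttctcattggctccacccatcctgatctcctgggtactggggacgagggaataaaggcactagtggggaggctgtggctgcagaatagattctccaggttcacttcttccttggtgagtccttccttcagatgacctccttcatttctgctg
Fos: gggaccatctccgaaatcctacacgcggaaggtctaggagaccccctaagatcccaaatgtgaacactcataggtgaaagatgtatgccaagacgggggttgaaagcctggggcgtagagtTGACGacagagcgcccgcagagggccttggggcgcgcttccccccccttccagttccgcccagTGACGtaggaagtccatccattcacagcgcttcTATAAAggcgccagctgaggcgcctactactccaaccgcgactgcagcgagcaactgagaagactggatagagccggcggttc
Junb: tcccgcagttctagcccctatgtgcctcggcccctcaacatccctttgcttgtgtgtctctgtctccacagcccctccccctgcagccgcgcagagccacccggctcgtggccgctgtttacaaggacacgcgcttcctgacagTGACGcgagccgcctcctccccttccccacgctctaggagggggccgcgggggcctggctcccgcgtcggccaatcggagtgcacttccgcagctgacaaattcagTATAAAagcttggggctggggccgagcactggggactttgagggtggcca
The Fos window held TGACG at bases 122 and 185, counted from its 5′ end, and TATAAA at base 218. The Junb window held TGACG at base 145 and TATAAA at base 251. This Junb TATAAA match begins at the start used by that table, and the Fos one at -33 relative to its start. No letters of the 7 motifs were found in the S100a5 window, and no matches overlapped in the windows shown. Among 32851 promoter windows of the same length, 20.8% held TGACG, 13.6% TATAAA, 13.7% the Ebf core, 7.81% the AP-1 site, 5.55% the Egr site, 5.29% the homeodomain core and 1.63% the CArG box. These matches describe letters in the window and are not binding measurements.

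The arrays were alike in overall signal, with medians between 7.64 and 7.73 and pairwise correlations of 0.975 to 0.991. Omp, the olfactory marker protein that defines mature olfactory neurons, gave a log2 signal of 11.33, 11.62 and 11.22 in the arrays labelled knockout, against 12.39, 11.82 and 12.51 in the wildtype arrays, so the tissue's defining marker was present in all 6. Emx2, the targeted gene, was at 8.38, 8.33 and 8.39 in the arrays labelled knockout, against 8.37, 8.59 and 8.36 in the wildtype arrays. Those ranges overlap, and the sources used here do not place the probes relative to the deletion. The labels are therefore not checked by this gene, the arrays are called labelled knockout throughout, and every direction below rests on the labels. Y-linked Eif2s3y was between 7.78 and 8.89 in labelled knockout replicates 2 and 3 and in wildtype replicate 2, and between 3.30 and 3.69 in the other arrays, so pools differed in the sex of their embryos. The mean over 10 markers of brain and olfactory bulb neurons was 6.27, 6.12 and 6.10 in the arrays labelled knockout, against 5.94, 6.94 and 6.58 in wildtype replicates 1, 2 and 3, so it was highest in 2 wildtype arrays. Not every marker followed that order. Gad1, Dlx1, Eomes and Reln each had an array labelled knockout above wildtype replicate 3. Gad2 was the only one of the 10 whose genotypes did not overlap, and it was higher in all arrays labelled knockout. Neurod6, a transcription factor of cortical neurons, was at 4.60, 4.88 and 4.0 in the arrays labelled knockout, against 4.54, 7.19 and 6.89 in wildtype replicates 1, 2 and 3.

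S100a5 was the one measured gene of the group with widely separated genotypes. Its log2 signal was 7.07, 7.47 and 6.56 in the arrays labelled knockout, against 9.57, 8.90 and 9.50 in the wildtype arrays. Every array labelled knockout lay below every wildtype array, and the gap between the nearest arrays was wider than the range within either genotype. The means were 7.03 ± 0.46 in the arrays labelled knockout and 9.32 ± 0.37 in the wildtype arrays (SD, n = 3 each), a log2 difference of -2.29 (SE 0.27 from the limma fit), or 4.88-fold lower. That difference was the 45th lowest of all 16661 clusters. The pooled standard deviation of S100a5 within genotypes, which does not use the difference, was above that of 94.8% of clusters, so this gene also varied widely between pools of 1 genotype.

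The difference of S100a5 was present within both kinds of pool. Among the arrays with high Y-linked signal it was -1.88, from labelled knockout replicates 2 and 3 against wildtype replicate 2. Among those with low Y-linked signal it was -2.46, from labelled knockout replicate 1 against wildtype replicates 1 and 3. Set against wildtype replicate 1 alone, the wildtype array with the lowest mean of brain markers, it was -2.53. Leaving out single arrays gave -2.05 to -2.50.

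**Figure D1:**
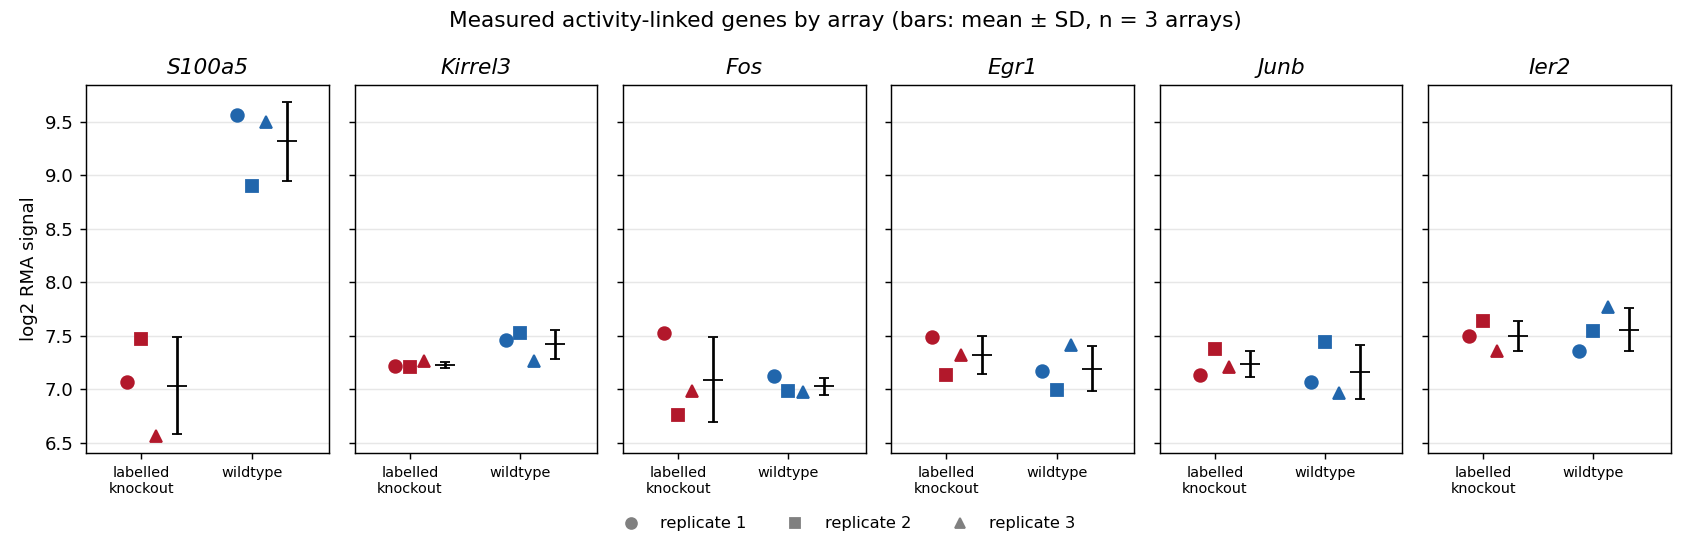
Log2 RMA signal (y axis) of the 6 measured activity-linked genes in each array, with the arrays labelled knockout (red) left of the wildtype arrays (blue), symbols for replicate numbers, and black bars for the mean ± SD of 3 arrays. S100a5 lies between 6.56 and 7.47 in the arrays labelled knockout and between 8.90 and 9.57 in wildtype arrays, while the other 5 genes lie between 6.76 and 7.77 in all arrays; levels of different genes are not comparable, since each has its own probes.

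Most other markers of mature olfactory neurons were lower in the same arrays, by less. Over 15 measured markers, which exclude S100a5, 13 had a negative difference, against 61.6% of all clusters, and the median log2 difference was -0.59, against -0.04 for all clusters. Of these, 3 fell and 0 rose (limma, Benjamini-Hochberg adjusted p at or under 0.05), where 2.04% of all clusters were called, 1.90% lower and 0.144% higher. Ano2, the calcium-activated chloride channel of the transduction cascade, fell by 1.21 (adjusted p = 0.0145), Rtp2, a chaperone of odorant receptors, fell by 1.09 (adjusted p = 0.0249), and Umodl1 fell by 1.07 (adjusted p = 0.0169). With single arrays left out, the adjusted p passed 0.05 in 3 of 6 cases for Ano2, with a highest of 0.0716, in 4 of 6 for Rtp2, with a highest of 0.109, and in 5 of 6 for Umodl1, with a highest of 0.0787. The 15 differences ran from -1.21 to 0.04, so some markers hardly differed, and the marker mean includes them. The mean over the markers was 8.65, 8.87 and 8.69 in the arrays labelled knockout, against 9.34, 9.10 and 9.40 in the wildtype arrays.

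S100a5 was then expressed relative to that marker mean, array by array. S100a5 minus the marker mean was -1.58, -1.40 and -2.13 in the arrays labelled knockout, against 0.23, -0.20 and 0.10 in the wildtype arrays. The genotypes did not overlap, and the difference was -1.75, compared with -2.29 before the subtraction. In the extracts of whole tissue, fewer mature neurons and less RNA of a gene per neuron cannot be told apart. Within genotypes, S100a5 and the marker mean were both highest in replicate 2 among the arrays labelled knockout and both lowest in replicate 2 among the wildtype arrays.

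**Figure D2:**
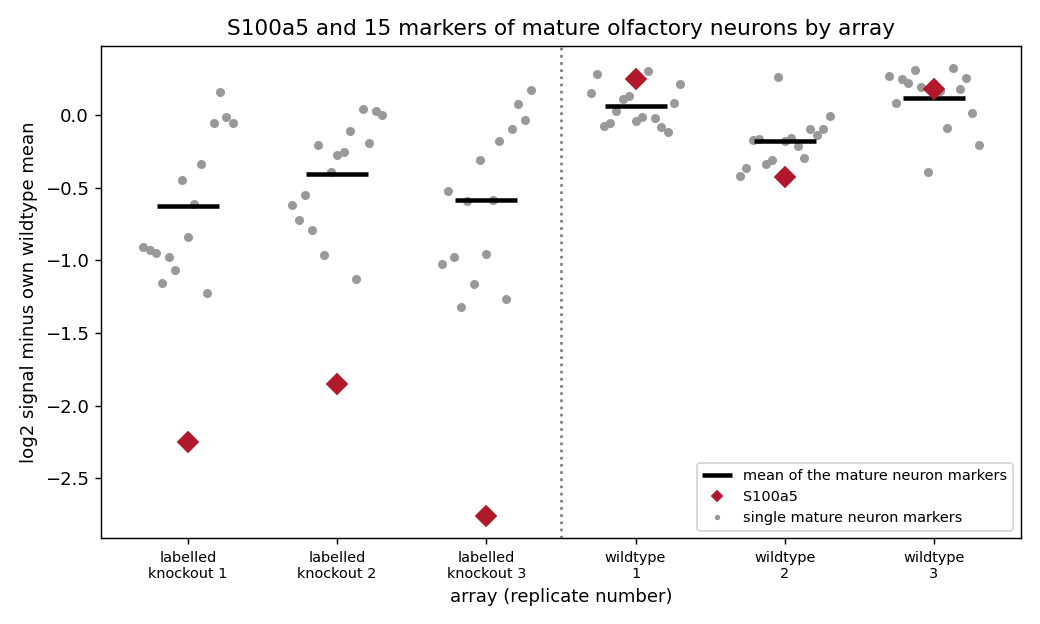
Log2 signal minus the gene's own wildtype mean (y axis) in each array (x axis, arrays labelled knockout on the left), for S100a5 (red diamonds), the 15 mature neuron markers (grey points, spread sideways for visibility) and the mean of these markers (black bars). In the arrays labelled knockout S100a5 lies below all markers, among them Ano2 with its difference of -1.21, and in the wildtype arrays it lies among them or at their lower edge.

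The genes with the most similar profile were found by the Euclidean distance between log2 profiles of the 6 arrays, each centred on its own mean. The 4 nearest to S100a5 among all single-gene clusters were the odorant receptor genes Olfr610 (distance 0.48), Olfr945 (0.60), Olfr199 (0.63) and Olfr578 (0.63). Olfr610 was at 4.40, 4.69 and 3.93 in the arrays labelled knockout, against 6.97, 5.74 and 6.90 in the wildtype arrays. The distances hold the genotype difference itself, and the 4 receptors had differences of -2.20, -1.89, -2.14 and -2.08 in the same order.

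The other S100 genes encode small calcium-binding proteins, and many sit beside S100a5 on chromosome 3. Of 11 measured, 0 passed the test and 1 had an unadjusted p under 0.05 (limma), against 2.04% and 10.1% of all clusters. S100a3, a close neighbour in the GRCm38.p6 gene table, was at 5.42, 5.72 and 5.28 in the arrays labelled knockout, against 5.81, 6.37 and 6.00 in the wildtype arrays. Its genotypes were apart by a small margin, with a difference of -0.59 (SE 0.17; limma adjusted p = 0.251). The genes directly on either side of S100a5 are S100a4 and S100a6. S100a4 was at 7.26, 7.88 and 7.04 in the arrays labelled knockout, against 7.05, 7.39 and 8.25 in the wildtype arrays, with a difference of -0.17 and overlapping genotypes. S100a6 was at 10.68, 10.86 and 10.70 in the arrays labelled knockout, against 10.66, 10.99 and 11.45 in the wildtype arrays, a difference of -0.28 (SE 0.19; limma adjusted p = 0.749). The median of the family was -0.07, and its differences ran from -0.59 to 0.13. Values of S100a8 and S100a9, which neutrophils carry, were highest in labelled knockout replicate 2 and wildtype replicate 3 within their genotypes (10.20 and 10.51 for S100a8).

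Kirrel3 differed little. Its log2 signal was 7.22, 7.21 and 7.26 in the arrays labelled knockout, against 7.46, 7.53 and 7.26 in the wildtype arrays. The highest array labelled knockout and the lowest wildtype array were both at 7.26, so the genotypes touched without crossing. The means were 7.23 ± 0.03 in the arrays labelled knockout and 7.42 ± 0.14 in the wildtype arrays (SD, n = 3 each), a difference of -0.19 (SE 0.10). It was -0.29 within the arrays of high Y-linked signal and -0.15 within those of low Y-linked signal. Relative to the mature neuron marker mean, Kirrel3 was higher in the arrays labelled knockout, at -1.44, -1.66 and -1.43, against -1.88, -1.57 and -2.14 in the wildtype arrays, a difference of 0.35 with overlapping arrays. The marker mean itself had a difference of -0.54, so a gene without any difference would also come out higher on that base. The sign of Kirrel3 therefore depends on whether the whole array or the mature neuron markers serve as the base.

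Kirrel3os, a transcript antisense to Kirrel3, has its own cluster and was at 5.10, 5.0 and 5.14 in the arrays labelled knockout, against 4.83, 5.04 and 4.92 in the wildtype arrays. The genotypes overlapped, and the difference was 0.15 (SE 0.09; limma adjusted p = 0.716). The clusters nearest to Kirrel3 in profile were Ssbp4 (distance 0.04), Ift80 (0.05), Slc7a5 (0.05) and Selenow (0.06). The whole range of Kirrel3 over the 6 arrays was 0.32, so many weakly varying transcripts lie close to it.

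Of the Kirrel family and its partners, 7 of 8 genes were measured. Of these, 0 passed the test and 0 had an unadjusted p under 0.05 (limma), against 2.04% and 10.1% of all clusters. Kirrel1, annotated as Kirrel, had a difference of -0.02, and Nphs1, the nephrin gene, -0.11. The smallest p-values belonged to Cd2ap, an adaptor of the nephrin complex, at 0.27 (limma adjusted p = 0.603), and Fyn, a kinase that phosphorylates nephrin, at -0.15 (limma adjusted p = 0.724).

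The immediate early genes showed no separation of the genotypes. Fos was at 7.53, 6.76 and 6.99 in the arrays labelled knockout, against 7.12, 6.98 and 6.98 in the wildtype arrays. Labelled knockout replicates 1 and 2 were the highest and the lowest array of all 6, and the wildtype arrays lay between them. The means were 7.09 ± 0.40 in the arrays labelled knockout and 7.03 ± 0.08 in the wildtype arrays (SD, n = 3 each), a difference of 0.06 (SE 0.19). Without labelled knockout replicate 1 it turned to -0.15, and it was -0.03 against wildtype replicate 1 alone, so Fos had no settled sign.

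Egr1 was at 7.49, 7.14 and 7.32 in the arrays labelled knockout, against 7.17, 6.99 and 7.42 in the wildtype arrays. The ranges overlapped, and the difference was 0.12 (SE 0.14). Junb was at 7.13, 7.37 and 7.21 in the arrays labelled knockout, against 7.07, 7.44 and 6.97 in the wildtype arrays. All values labelled knockout lay inside the wildtype range, with a difference of 0.08 (SE 0.14). Ier2 was at 7.50, 7.64 and 7.36 in the arrays labelled knockout, against 7.36, 7.54 and 7.77 in the wildtype arrays, a difference of -0.06 (SE 0.13). Each of these 3 differences was smaller than the standard deviation within either genotype, and the signs of Junb and Ier2 turned when single arrays were left out (-0.02 for Junb and 0.05 for Ier2, both without wildtype replicate 3).

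Of the 6 measured genes 2, S100a5 and Kirrel3, had genotypes that did not overlap, where 15.5% of clusters did, 12.0% with lower and 3.51% with higher values in the arrays labelled knockout. Since the genes were chosen with this contrast known, nothing is read from this count. The median difference of the 6 was 0.00. Relative to the mature neuron marker mean, all 4 immediate early genes were higher in the arrays labelled knockout, by 0.61 for Fos, 0.66 for Egr1, 0.62 for Junb and 0.48 for Ier2. The marker mean itself had a difference of -0.54, so a gene without any difference would also come out higher by that amount. Nothing is read from the shared direction. Immediate early transcripts are made by many cell types, so that base need not apply to them.

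The pools did not share 1 order over the immediate early genes. Labelled knockout replicate 1 was the highest array for Fos and Egr1, whereas wildtype replicate 2 was the highest for Junb and wildtype replicate 3 for Ier2. Over these 4 genes and 40 further immediate early genes, labelled knockout replicate 1 was the highest array for 9, labelled knockout replicate 2 for 2, labelled knockout replicate 3 for 4, and wildtype replicates 1, 2 and 3 for 6, 10 and 13. Nr4a1, Nr4a2 and Atf3, stress- and activity-induced transcription factors picked here after their values were seen, also peaked in labelled knockout replicate 1. Nr4a1 was at 8.83, 8.06 and 8.69 in the arrays labelled knockout, against 8.70, 8.13 and 8.26 in the wildtype arrays, with a difference of 0.16 (SE 0.23; limma adjusted p = 0.915). The pooled standard deviation of Fos within genotypes was above that of 86.5% of all clusters, against 69.5% for Egr1, 70.0% for Junb, 62.9% for Ier2 and 27.8% for Kirrel3. The clusters nearest to Fos in profile were Akr1c14 (distance 0.11), Ntrk3 (0.17), Marchf1 (0.20) and Frem1 (0.21), all with their highest value in labelled knockout replicate 1.

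**Figure D3:**
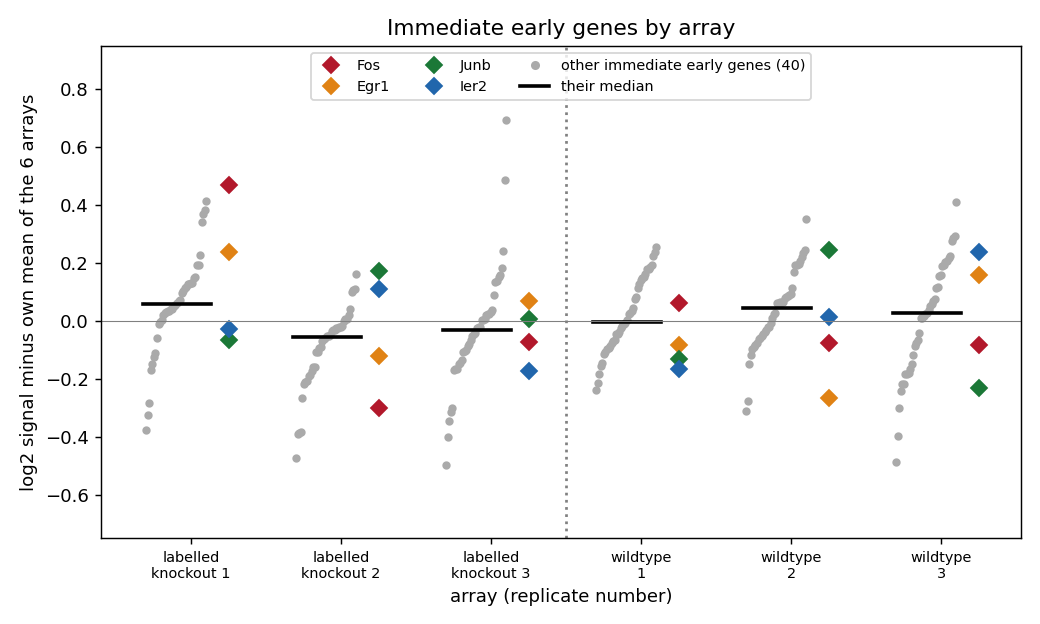
Log2 signal minus the gene's own mean over the 6 arrays (y axis) in each array (x axis, arrays labelled knockout on the left), for Fos, Egr1, Junb and Ier2 (coloured diamonds) and 40 other immediate early genes (grey points in ascending order, black bar at their median). Fos and Egr1 are highest in labelled knockout replicate 1, Junb in wildtype replicate 2 and Ier2 in wildtype replicate 3.

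The wider immediate early list gave 0 calls in either direction among 40 measured of 43 genes (limma), against 2.04% of all clusters. At an unadjusted p under 0.05, 4 were lower and 2 higher, against 8.33% and 1.81% of all clusters. The list's median difference was -0.04, the same as for all clusters, and its differences ran from -0.62 to 0.42. The list mean was 7.94, 7.78 and 7.85 in the arrays labelled knockout, against 7.90, 7.91 and 7.89 in the wildtype arrays. Among the 40 genes, 3 were lower and 3 higher without overlap of the genotypes, against 12.0% and 3.51% of all clusters. The smallest p-values belonged to Ppp1r15a and Fosl1, which were both lower. Ppp1r15a encodes a phosphatase subunit of the integrated stress response. It was at 7.31, 7.64 and 7.19 in the arrays labelled knockout, against 7.85, 8.04 and 8.10 in the wildtype arrays. Its genotypes did not overlap, with a difference of -0.62 (SE 0.14; limma adjusted p = 0.0980). Fosl1, an AP-1 subunit, was at 6.59, 6.55 and 6.65 in the arrays labelled knockout, against 6.95, 6.84 and 6.96 in the wildtype arrays, a difference of -0.32 (SE 0.08; limma adjusted p = 0.150) with no overlap.

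Upstream of these genes lie calcium- and cyclic-AMP-driven kinases and the factors Creb1, Srf and Elk. Of 29 such genes 23 were measured, 0 passed and 1 had an unadjusted p under 0.05 (limma), against 2.04% and 10.1% of all clusters. A positive difference was seen in 18, against 38.4% of all clusters, and the median difference was 0.04. Camk2a, a calcium-dependent kinase, was at -0.22 (limma adjusted p = 0.425), and Mrtfb, a cofactor of Srf, at 0.21 (limma adjusted p = 0.560). Heat shock genes, which respond to handling, had 4 of 9 members measured and 0 called (limma; 0 at an unadjusted p under 0.05), against the same shares. Their median was -0.07. Hsph1 was at -0.20 and Hsp90aa1 at 0.22 (limma adjusted p = 0.700 and 0.850). The Hsp90aa1 signal was low, with means of 4.60 in the arrays labelled knockout and 4.38 in the wildtype arrays, where array medians were 7.64 to 7.73.

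Of the olfactory transduction genes, which carry the activity of these neurons, 13 of 14 were measured. Among them Ano2, Adcy3, Cnga2, Gnal, Gng13, Cngb1, Pde1c and Slc24a4 are also mature neuron markers above. The values of these lists are therefore not separate results. Ano2, described above, was the only one that fell on limma's test and 0 rose, where 1.90% of all clusters fell and 0.144% rose. At an unadjusted p under 0.05, 7 were lower and 1 higher, against 8.33% and 1.81% of all clusters. The median difference was -0.31. Adcy3, the adenylyl cyclase of the cascade, was at -0.48 (limma adjusted p = 0.211). Kirrel3 and the immediate early genes, with differences between -0.19 and 0.12, lay above that median, and S100a5 lay below the lowest gene of the cascade.

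Other axon-sorting and targeting molecules were compared because several of them, like Kirrel2 and Kirrel3, are set by activity or by cyclic AMP. Of 13 such genes 12 were measured, 2 fell and 0 rose (limma), against 1.90% and 0.144% of all clusters, and the median difference was -0.09. Cntn4, an immunoglobulin-superfamily adhesion molecule known as BIG-2 and carried by subsets of olfactory axons, was at 9.59, 9.84 and 9.63 in the arrays labelled knockout, against 10.78, 10.70 and 10.76 in the wildtype arrays. The genotypes were far apart relative to their spread, and Cntn4 fell by 1.06 (SE 0.09; limma adjusted p = 0.00472). It passed in all 6 fits that left out 1 array, with a highest adjusted p = 0.0252 (limma). Slit1, a repellent guidance cue, fell by 0.56 (limma adjusted p = 0.0495), a call that was lost in 5 of those 6 fits, with a highest adjusted p of 0.186 without labelled knockout replicate 3. Pcdh10, a protocadherin of olfactory axons, was at 6.93, 6.77 and 6.80 in the arrays labelled knockout, against 7.13, 7.54 and 7.45 in the wildtype arrays. Its difference was -0.54 with no overlap (limma adjusted p = 0.113). Nrp1, a semaphorin receptor whose level follows cyclic AMP signalling in these axons, was at 0.21, also with no overlap (limma adjusted p = 0.505). Of the 12 genes, 4 were lower and 1, Nrp1, was higher without overlap, against 12.0% and 3.51% of all clusters.

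Markers of the other cells in the dissected tissue were set beside these values. Over all clusters, 1.90% fell and 0.144% rose, 8.33% were lower and 1.81% higher at an unadjusted p under 0.05, and 38.4% had a positive difference. Immature neuron markers had a median difference of -0.30 in 10 measured genes. Of these, 9 had a negative difference, against 61.6% of all clusters, and 7 were lower at an unadjusted p under 0.05 (limma). Gap43, found in growth cones of extending axons, fell by 0.52 and Trib3 by 0.83 (limma adjusted p = 0.0406 and 0.0456). The calls were lost in 6 of 6 and 5 of 6 fits without 1 array, with highest adjusted p of 0.163 and 0.173 (limma). Of 9 basal and progenitor markers, with a median of -0.04, Nhlh1, a transcription factor of newly formed neurons, fell by 0.55 (limma adjusted p = 0.0216), and the call was lost in 6 of 6 such fits, with a highest adjusted p of 0.0976. Bone, cartilage and mesenchyme markers were positive in 12 of 12 genes with 0 calls (limma; 5 at an unadjusted p under 0.05), and their mean ran from 9.81 to 9.90 in the arrays labelled knockout, against 9.38 to 9.64 in the wildtype arrays. Sp7, an osteoblast factor, was at 0.59 and Ibsp, a bone matrix protein, at 1.04 (limma adjusted p = 0.125 and 0.130).

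Sustentacular markers, of the supporting cells, had a median of 0.20 in 7 genes and 0 calls (limma; 2 at an unadjusted p under 0.05), with a mean of 9.96 to 10.23 in the arrays labelled knockout, against 9.74 to 10.04 in the wildtype arrays. Over 6 skeletal muscle markers the median was 0.50, with 0 calls and 0 at an unadjusted p under 0.05 (limma), with a mean of 6.72 to 7.73 in the arrays labelled knockout, against 6.51 to 7.18 in the wildtype arrays. Markers of other cell types had medians near 0. The median was -0.01 in 8 endothelial, 0.02 in 9 macrophage and neutrophil and -0.05 in 6 ciliated respiratory markers, with 0 calls and 0 at an unadjusted p under 0.05 in each (limma). The smallest p-values in these 5 lists belonged to Muc2 at 0.50 and Cyp1a2 at 0.74 (sustentacular), Tnnt3 at 0.57 and Ckm at 0.53 (muscle), Esam at -0.15 and Cdh5 at 0.11 (endothelial), Cd68 at 0.31 and Mpo at -0.15 (macrophage and neutrophil) and Dnah5 at 0.30 and Rsph1 at -0.23 (ciliated), with adjusted p between 0.237 and 0.827 (limma). Brain and bulb neuron markers had a median of -0.29 in 10 genes, of which Gad2, an enzyme of GABA synthesis, rose by 0.98 (limma adjusted p = 0.0203). That call was lost in 5 of 6 fits without 1 array, with a highest adjusted p of 0.0888. The part of these markers in the values of S100a5, Kirrel3 and the immediate early genes was not tested. The subtraction of the mature neuron mean and the value against wildtype replicate 1 alone are descriptions.

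**Figure D4:**
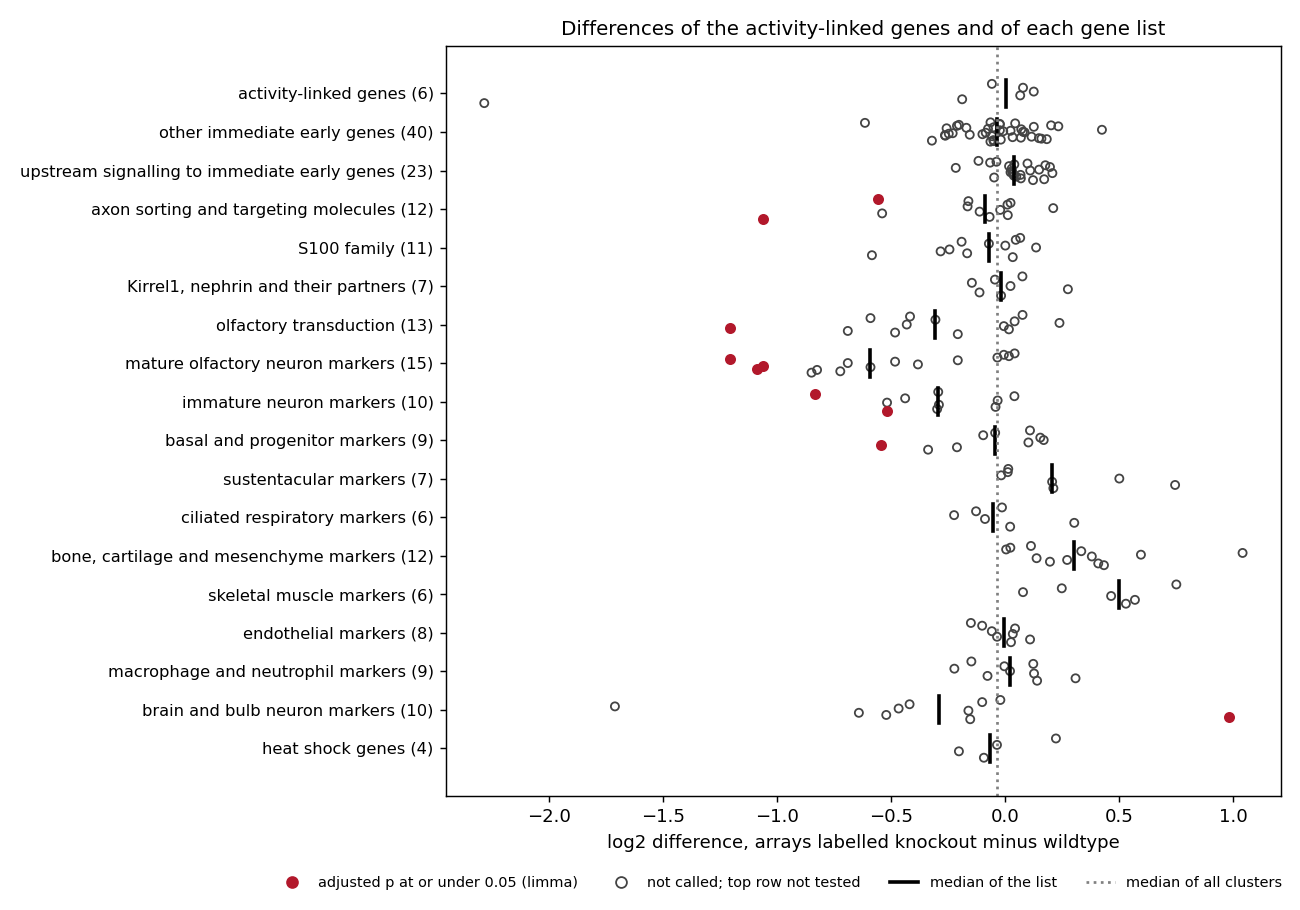
Log2 difference, arrays labelled knockout minus wildtype (x axis), for the 6 activity-linked genes (top row, not tested) and for every measured gene of each list (number in brackets; red, adjusted p at or under 0.05 by limma), with a black bar at each median and a dotted line at the median of all clusters; height within a row has no meaning. S100a5 at -2.29 stands alone on the left, and the immediate early rows centre near 0 while the mature neuron markers have a median of -0.59.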

How the data were processed

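Total RNA (2.7 ug per array) was labelled and hybridised to Affymetrix Mouse Exon 1.0 ST arrays, per the labels' protocols. The log2 values deposited by the authors came from Affymetrix Expression Console and its RMA method, as the submitters' processing notes state. RMA subtracts background, forces the arrays to 1 distribution and summarises all probes of a cluster, so changes limited to some exons are hidden. The sources used here give no versions or genome build.

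The platform annotation spans 16661 clusters, of which 14939 name 1 gene, 989 several and 733 none. The 6577 probe sets outside that range were tested only as an alternative. Names were updated through Entrez identifiers to RefSeq's GRCm38.p6 table, where 14884 were found. Where a gene had several clusters, the brightest was used. No deposited column was left unused.

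Differences were fitted on all clusters by limma 3.58.1 (R 4.3.3; lmFit, then eBayes; two-sided p adjusted by Benjamini-Hochberg; threshold 0.05). The labels do not say that pools were matched, so p-values measure the spread between the pools. No pair of arrays shared more than 9 identical values, and each counted as 1 replicate. The number of arrays limits the precision. The fit was tested on simulated data. Plots were drawn with matplotlib 3.10.9 in Python 3.11.15.

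The members, gene lists and tests were chosen with earlier results of these data known. Named are the 8 members, up to 3 called genes of each list with the smallest p or 2 uncalled ones, the 4 nearest profiles of S100a5, Kirrel3 and Fos, Emx2, and the neighbours of S100a5 with Kirrel1 and Nphs1. Omp, Adcy3, Pcdh10, Nrp1, Nr4a1, Nr4a2, Atf3, Neurod6, Gad1, Dlx1, Eomes, Reln, S100a8, S100a9, Kirrel3os and Eif2s3y were named after their values were seen. Cnga2, Gnal, Gng13, Cngb1, Pde1c and Slc24a4 are named only as genes shared between lists. Alternatives were 3 scalings, a dim filter (mean above the 25th percentile), an intensity trend, robust estimation, array weights, a replicate block, Y-linked signal (2 genes) as covariate, all probe sets and each array left out.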

Additional observations from a re-analysis of the deposited data

How the results depend on the processing

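The dim filter, intensity trend, robust estimation, all probe sets and the replicate block leave the difference of a gene unchanged by design. In the other alternatives the difference of S100a5 stayed between -1.88 and -2.53, except the subtraction of the marker mean, which gave -1.75. The same subtraction gave 0.35 for Kirrel3, 0.61 for Fos, 0.66 for Egr1, 0.62 for Junb and 0.48 for Ier2. The subtracted mean itself had a difference of -0.54, so a gene without any difference would also come out positive. Within the arrays of high Y-linked signal Kirrel3 was at -0.29, Junb at -0.16 and Fos at -0.11, and within those of low Y-linked signal Kirrel3 was at -0.15, Junb at 0.12 and Fos at 0.48. Without wildtype replicates 2 and 3 together, an alternative chosen after seeing the data, Ier2 was at 0.14. Leaving out single arrays gave -0.27 to -0.13 for Kirrel3, -0.15 to 0.23 for Fos, 0.02 to 0.24 for Egr1, -0.02 to 0.22 for Junb and -0.16 to 0.05 for Ier2. Repeated quantile normalization put the median of all clusters at 0.03 and both centrings put it nearer 0, against -0.04 as deposited.

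The counts of 316 lower and 24 higher clusters were 145 to 224 and 13 to 23 without single arrays, and 59 and 5 without wildtype replicates 2 and 3. The lower count was 109 with the dim filter, 186 with the Y-linked covariate and 144 with all probe sets. The replicate block gave 168 lower clusters, 0 called transduction genes against 1, 1 axon-sorting gene against 2 and 1 marker gene against 7. Deviations of same-numbered arrays correlated at 0.007, 0.049 and -0.167, against -0.214 to 0.216 for differently numbered arrays. These correlations cannot show whether same-numbered pools shared a litter or batch, and the labels do not say. The axon-sorting count was 1 with arrays centred on the median or the 75th percentile, with quantile normalization repeated, the dim filter, robust estimation, the Y-linked covariate or all probe sets, and 1 to 2 without single arrays. The marker count was 2 with the Y-linked covariate, 1 with all probe sets and 0 to 6 without single arrays, and the transduction count 0 to 1. Without wildtype replicates 2 and 3 these 3 counts were 0, with 1 wildtype array assumed to vary like the others. The causes were not tested. The other 4 lists had 0 calls in all alternatives (limma). Probe background is not in the values, so how far it limits small differences is unknown.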
